A study of Mus musculus with 6 samples.

Results

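The fatty acid desaturases and elongases described here are the enzyme family of Scd2, the gene deleted in these macrophages. The members are the stearoyl-CoA desaturases Scd1, Scd2, Scd3 and Scd4, the front-end desaturases Fads1 and Fads2, their relative Fads3, and the elongases Elovl1, Elovl5 and Elovl6. They were taken by gene symbol from the count table and make up 10 of its 40481 genes. Of these 10, 9 had enough counts to enter the comparison and Scd4 did not.

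Unstimulated bone marrow-derived macrophages (BMDMs), which are macrophages grown from mouse marrow in medium containing a CSF-1 source, were compared between 3 wild-type and 3 Scd2-m/-m samples. One poly(A)-selected RNA library was sequenced from each sample. In Scd2-m/-m mice a floxed Scd2 allele is removed by Cre expressed from the lysozyme M promoter, which is active in monocytes, macrophages and neutrophils. The labels call the controls WT and do not say whether they carry floxed alleles or Cre. They do not give age or sex for a sample, or say whether samples came from separate mice or cultures, so p-values measure the spread between these samples.

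Fatty acids made in the cell begin as saturated chains. Stearoyl-CoA desaturases place the first double bond at the delta-9 position and so make oleate and palmitoleate, Fads1 and Fads2 place further double bonds in essential fatty acids on the way to arachidonate and docosahexaenoate, and the Elovl enzymes carry out the first step in lengthening a chain. In macrophages these products set membrane fluidity and supply arachidonate for eicosanoids. The mouse has a cluster of Scd genes that arose by duplication, and transcription of several of these enzymes is driven by the sterol-regulated factors SREBP and LXR.

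The 4 Scd genes lay together on chromosome 19 (GRCm38) within 204.6 kb, in the order Scd3, Scd2, Scd4, Scd1, with Scd1 on the minus strand and the others on the plus strand. Scd2 (ENSMUSG00000025203) spanned chr19:44293674-44306864 and Scd1 (ENSMUSG00000037071) spanned chr19:44394455-44407879. Their coding sequences held long identical stretches, which are shown because a read that falls wholly inside one cannot be assigned to 1 Scd gene. Capitals mark the longest single run, 61 bases, that all 4 longest Scd transcripts shared. Parts in lower case can also be common to all 4, such as the run from gcccaccacaag to ggcttctt that opens the Scd1 and Scd3 stretch. Each sequence is written 5′ to 3′ along the transcript, from the GENCODE transcripts of GRCm38.
Scd1 and Scd2, 147 bases: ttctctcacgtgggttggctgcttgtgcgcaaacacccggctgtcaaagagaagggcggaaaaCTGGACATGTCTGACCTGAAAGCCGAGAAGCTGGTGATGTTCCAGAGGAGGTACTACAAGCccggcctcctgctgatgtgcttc
Scd1 and Scd3, 185 bases: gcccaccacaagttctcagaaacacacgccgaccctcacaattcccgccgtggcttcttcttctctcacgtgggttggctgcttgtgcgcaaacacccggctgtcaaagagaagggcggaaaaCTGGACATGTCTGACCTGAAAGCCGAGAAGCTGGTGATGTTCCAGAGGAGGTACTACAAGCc
The first stretch crossed an exon junction in both genes, running over 2 exons at chr19:44299702-44301245 on the plus strand for Scd2 and at chr19:44400341-44401805 on the minus strand for Scd1. The whole stretch was coding. Over the full transcripts the shared part was small. Of all 100-base windows, 0.896% of those in Scd2 and 2.64% of those in Scd1 were identical to a window in another Scd transcript. With 50-base windows the shares were 3.79% in Scd2, 4.66% in Scd1, 6.37% in Scd3 and 3.44% in Scd4. The authors' handling of reads that match several genes was not given in the sources used here, so counts of Scd3 and Scd4 in particular are uncertain.

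Among the Fads genes the only long identical stretch joined Fads2 and Fads3, which lay 2.7 kb apart on chromosome 19 and pointed in opposite directions. It is shown to set the contrast with the Scd genes, and all of it was coding.
Fads2 and Fads3, 54 bases: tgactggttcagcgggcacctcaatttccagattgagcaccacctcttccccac
Of the 50-base windows, 0.161% of those in Fads2 and 0.137% of those in Fads3 were shared within the Fads genes, and at 75 bases none was. The 3 Elovl genes, on chromosomes 3, 4 and 9, shared no window of 50 bases.

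Each library held between 46285176 and 57629638 counts on genes. Macrophage marker genes were abundant in every library, with Csf1r, the receptor that macrophages need to survive, at 5344 to 7310 CPM (counts scaled to library size). The summed level of 9 macrophage markers was 37796 to 38951 CPM in wild type and 21937 to 22676 CPM in Scd2-m/-m. Of the 9 markers, 4 were called lower (Adgre1, Csf1r, Mertk and Lyz2) and Cd68 was called higher. Over all tested genes 17.5% were called, and this share belongs beside each count of called markers in this paragraph. Cd68 was no longer called by edgeR without any 1 of 5 libraries (all but wild-type replicate 1, FDR 0.063 to 0.13). Most of the gap came from Lyz2, the gene whose promoter drives Cre, at 22099, 22926 and 23228 CPM against 8661, 9374 and 9054 CPM. The Scd2-m/-m mice carry Cre, and the labels do not say whether the controls do. The part of the Cre allele in the level of Lyz2 was not tested. Markers of dividing cells summed to 40.7 to 50.3 CPM in wild type and 132 to 137 CPM in Scd2-m/-m, with 8 of 8 called higher. Those of monocytes and progenitors summed to 42.4 to 60.2 and 102 to 161 CPM, with 6 of 8 called higher. Of these, Flt3 (2 to 10 counts per wild-type library) and Prtn3 (0 to 12) entered the comparison only through their Scd2-m/-m counts. Neutrophil markers summed to 11.0 to 11.9 and 25.7 to 33.5 CPM, with 5 of the 7 tested among 9 listed called higher. Of 10 lymphocyte markers 3 were tested, and 2 were called higher (Cd79a and Cd79b). The sums of that list were 2.28 to 3.95 and 5.51 to 7.06 CPM, mostly from Cd79b (means 2.50 and 5.01 CPM). Dendritic cell markers summed to 8.04 to 11.3 and 7.58 to 10.8 CPM, with 2 of the 7 tested among 8 listed called higher (Ccr7 and Flt3). Flt3 is the gene already counted among the monocyte and progenitor markers. Ccr7, with 0 to 4 counts per wild-type library, also entered the comparison only through Scd2-m/-m. The tested dendritic cell markers that were not called differed in both directions. Of 5 tested osteoclast markers Ctsk was called higher and Mmp9 lower, and of 4 tested erythroid and megakaryocyte markers Pf4 was called lower. Stromal markers summed to less than 5 CPM in every library, with 0 of 4 called by edgeR, DESeq2 or limma-voom and 1, Pdgfrb, at an unadjusted edgeR p below 0.05. In bulk RNA a change in the make-up of the culture and a change in RNA per cell cannot be told apart, and the part of these markers in the results on desaturases and elongases was not tested.

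Scd2, the deleted gene, was still counted at a substantial level in the Scd2-m/-m libraries. Its level was 66.9, 77.8 and 62.7 CPM in the 3 wild-type libraries and 59.5, 38.0 and 39.8 CPM in the 3 Scd2-m/-m libraries. Every Scd2-m/-m library lay below every wild-type library, and the gap between the nearest pair was small because Scd2-m/-m replicate 1 stood well above the other two. The Scd2-m/-m mean was 66.2% of the wild-type mean. On the log2 scale the difference was -0.59 (SE 0.19, n = 3 and 3, edgeR quasi-likelihood FDR 0.10), which did not pass the threshold of 0.05, and the exact two-sided permutation test gave p = 0.1, the smallest that 3 against 3 libraries allow. With Scd2-m/-m replicate 1 left out, this became -0.83 (edgeR FDR 8.9e-05). The difference did not pass with any other single library left out (edgeR FDR 0.14 to 0.28). The counts are totals per gene, and the exons removed by Cre were not given in the sources used here. Any transcript from exons that remain after recombination would be counted in these values. The part of such transcript in the level of Scd2 was not tested.

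Scd1, the main desaturase of liver and fat, was the member with the largest difference in fold among the 9 tested. Its level was 10.4, 13.8 and 8.64 CPM in wild type and 37.0, 21.8 and 18.8 CPM in Scd2-m/-m. The genotypes did not overlap, with Scd2-m/-m the higher, and Scd2-m/-m replicate 1 was again the highest of its group. The log2 difference was 1.24 (SE 0.34, edgeR FDR 0.0778), which did not pass the threshold. Without Scd2-m/-m replicate 1 it was smaller but passed, at 0.89 (edgeR FDR 0.017), and DESeq2 on all 6 libraries gave an FDR of 0.0075. The difference did not pass with any other single library left out (edgeR FDR 0.076 to 0.21).

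Scd3 and Scd4 were close to the limit of what was counted. Scd3, a desaturase of skin and gland that prefers palmitate, had 4, 11 and 8 counts in wild type and 13, 13 and 6 counts in Scd2-m/-m. Its log2 difference was 0.31 with an SE of 0.57 (edgeR FDR 0.762), so a difference of moderate size was not detectable at this depth. Scd4, known from the heart, had 7, 10 and 4 counts in wild type and 9, 1 and 9 counts in Scd2-m/-m. For both genes the libraries of the genotypes overlapped.

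**Figure D1:**
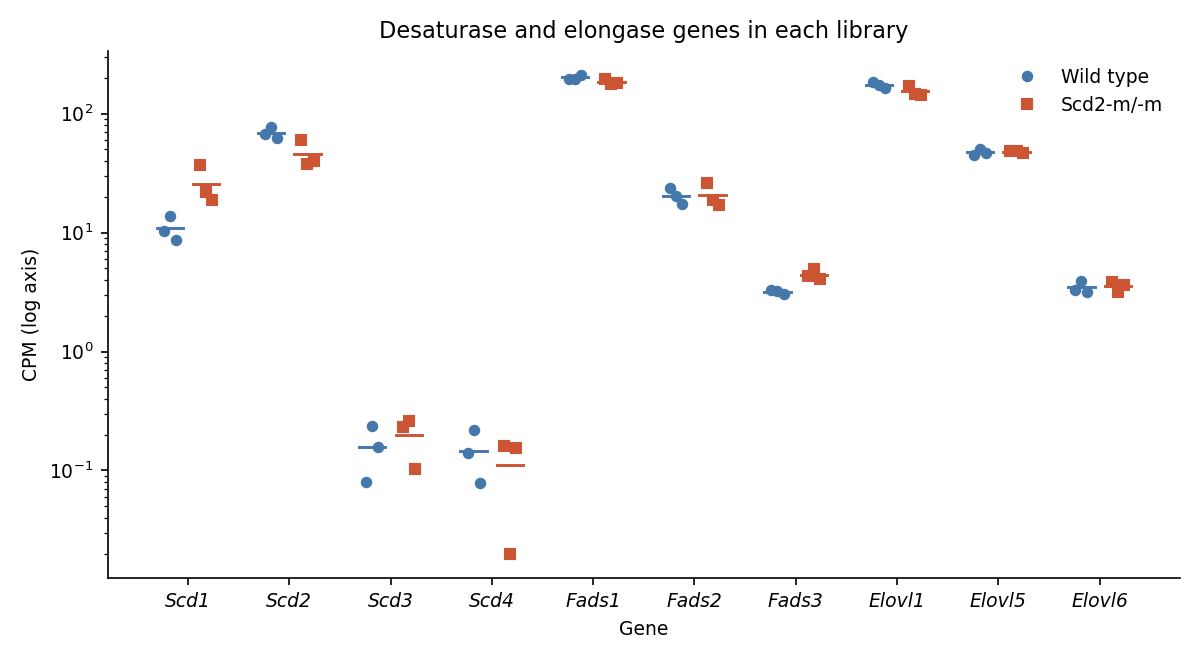
Level of the 10 genes in each library in CPM on a log axis, with circles for the 3 wild-type libraries, squares for the 3 Scd2-m/-m libraries and a line at each group's mean. Scd1, Scd2 and Fads3 are the 3 tested genes whose genotypes do not overlap, and Scd3 and Scd4 lie below 0.3 CPM in every library.

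Per kilobase of transcript, Scd2 made up most of the Scd transcripts in both genotypes, and its share was lower in Scd2-m/-m. With the RPKM of Scd1 to Scd4 summed in each library, Scd2 accounted for 84.9%, 82.8% and 86.2% in wild type (84.6% ± 1.71, SD, n = 3). It accounted for 58.7%, 60.5% and 65.1% in Scd2-m/-m (61.4% ± 3.30, SD, n = 3). The groups did not overlap, and Scd2-m/-m replicate 1 lay with the other Scd2-m/-m libraries on this measure. The share of Scd1 was 13.3 to 16.4% in wild type and 34.3 to 40.7% in Scd2-m/-m. Put as a ratio of RPKM, Scd2 stood 5.76, 5.04 and 6.5 times above Scd1 in wild type and 1.44, 1.56 and 1.9 times above it in Scd2-m/-m.

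The total of the 4 genes did not separate the genotypes. It was 14.4, 17.2 and 13.3 RPKM in wild type and 18.6, 11.5 and 11.2 RPKM in Scd2-m/-m, so that the highest and the lowest totals both came from Scd2-m/-m libraries. The highest belonged to replicate 1. These totals and shares are descriptions and were not tested. They used the full annotated exon length of Scd2 in both genotypes, without taking off the exons removed by Cre.

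**Figure D2:**
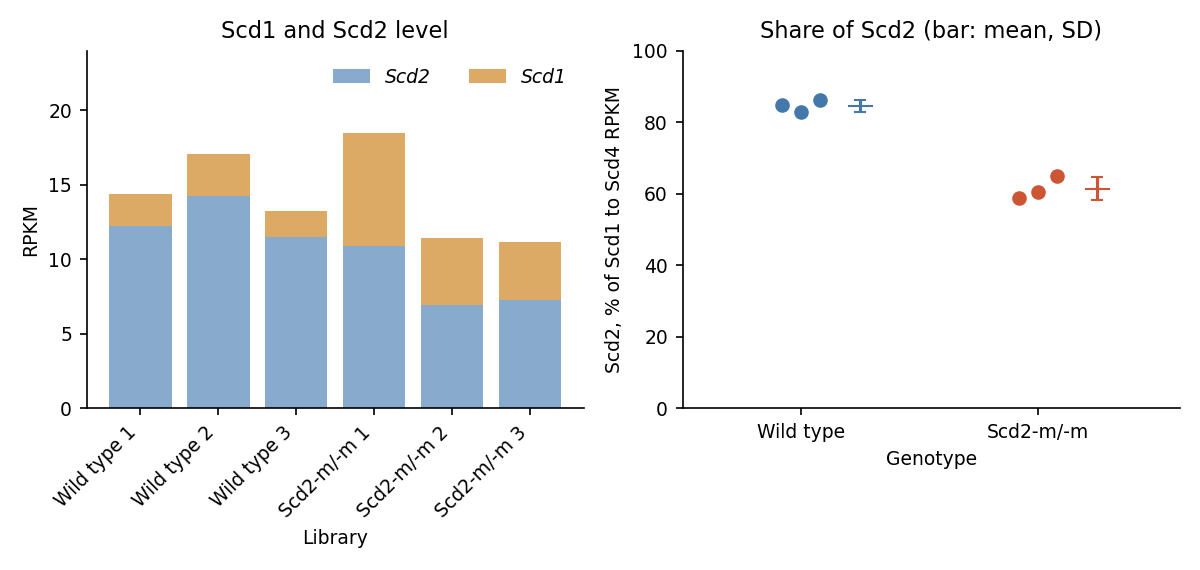
Left, stacked bars of the RPKM of Scd2 and Scd1 in each of the 6 libraries. Right, the share of Scd2 in the summed RPKM of Scd1 to Scd4, with 1 point per library and the mean with its SD beside them, where the means are 84.6% for wild type and 61.4% for Scd2-m/-m.

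Scd2-m/-m replicate 1 stood high in several of the enzymes at once. Relative to the mean of log2 CPM in its group, it deviated by 0.58 for Scd1, 0.41 for Scd2, 0.36 for Fads2, 0.16 for Elovl1 and 0.12 for Elovl6. For Fads1 the deviation was 0.09, for Elovl5 0.01 and for Fads3 -0.04. The other Scd2-m/-m libraries lay below the group mean for Scd1, Scd2, Fads1, Fads2 and Elovl1. Scd3, with 13 counts or fewer per library, deviated by 0.27 in replicate 1 and by 0.40 in replicate 2. Wild-type libraries also deviated from their group mean. Among them replicate 1 was the highest for Fads2 (0.22) and Elovl1 (0.09), and replicate 2 for Scd1 (0.36), Scd2 (0.18) and Elovl6 (0.18).

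Fads1 and Fads2, the delta-5 and delta-6 desaturases that act in turn on the way to arachidonate, did not differ beyond the spread between libraries. Fads1 (chr19:10182888-10196877, plus strand) was among the abundant genes, at 195, 197 and 213 CPM in wild type and 197, 178 and 182 CPM in Scd2-m/-m, and 93.7% of tested genes had a lower mean. Its log2 difference was -0.12 (SE 0.06, edgeR FDR 0.221). Fads2 (chr19:10062765-10101746, minus strand) was at 23.6, 20.3 and 17.3 CPM in wild type and 26.0, 18.8 and 17.1 CPM in Scd2-m/-m. The libraries of the genotypes overlapped for both genes. The difference of Fads2 was 0.02 with an SE of 0.18 (edgeR FDR 0.961).

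Fads3, which introduces a double bond in sphingoid bases, was the only member called in the edgeR comparison, and it was higher in Scd2-m/-m. The gene (ENSMUSG00000024664, chr19:10041569-10060110, plus strand) had 3.28, 3.23 and 3.05 CPM in wild type and 4.28, 4.91 and 4.06 CPM in Scd2-m/-m. The wild-type libraries were close together and all lay below the Scd2-m/-m libraries. The level rose to 1.39 times that of wild type, with a log2 difference of 0.47 (SE 0.14, edgeR FDR 0.0311). It rested on 149 to 163 counts per wild-type library and 236 to 247 counts per Scd2-m/-m library. The call was lost without any 1 of 4 libraries. The FDR was 0.090 without wild-type replicate 2, 0.083 without wild-type replicate 3, 0.051 without Scd2-m/-m replicate 1 and 0.16 without Scd2-m/-m replicate 2, with edgeR in each case.

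The elongases differed less than the Scd genes. Elovl1, which lengthens saturated and monounsaturated chains to very long ones for sphingolipids, was at 185, 173 and 164 CPM in wild type and 172, 147 and 143 CPM in Scd2-m/-m. The highest Scd2-m/-m library, replicate 1, lay inside the wild-type range. The log2 difference was -0.18 (SE 0.07, edgeR FDR 0.123), and without that library it was -0.26 (edgeR FDR 0.017). The gene (chr4:118428093-118432953, plus strand) overlaps Cdc20, a gene of cell division on the opposite strand, by 53 bases. Cdc20 had 80 to 138 counts in wild type and 243 to 450 counts in Scd2-m/-m, and whether reads were counted by strand was not given in the sources used here.

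Elovl5, which extends polyunsaturated chains between the steps of Fads2 and Fads1, was the steadiest of the 10 genes in Scd2-m/-m. It was at 45.1, 50.1 and 47.1 CPM in wild type and 48.2, 48.7 and 46.8 CPM in Scd2-m/-m, with a coefficient of variation of 5.35% and 2.06%. Its log2 difference was 0.01 (SE 0.06, edgeR FDR 0.909). Elovl6, which turns palmitate into stearate, the substrate of the Scd enzymes, was low at 3.30, 3.93 and 3.19 CPM in wild type and 3.84, 3.18 and 3.60 CPM in Scd2-m/-m. The genotypes overlapped, and the difference was 0.03 (SE 0.15, edgeR FDR 0.921).

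Over the family, 1 of 9 tested members was called (edgeR FDR below 0.05), where 17.5% of all 14778 tested genes were called. For 3 of 9 the libraries of the genotypes did not overlap, where the same held for 34.9% of all tested genes. The median log2 difference was 0.02 over the 9 members and 0.00 over all tested genes. The counts of the family were thus near these background shares.

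**Figure D3:**
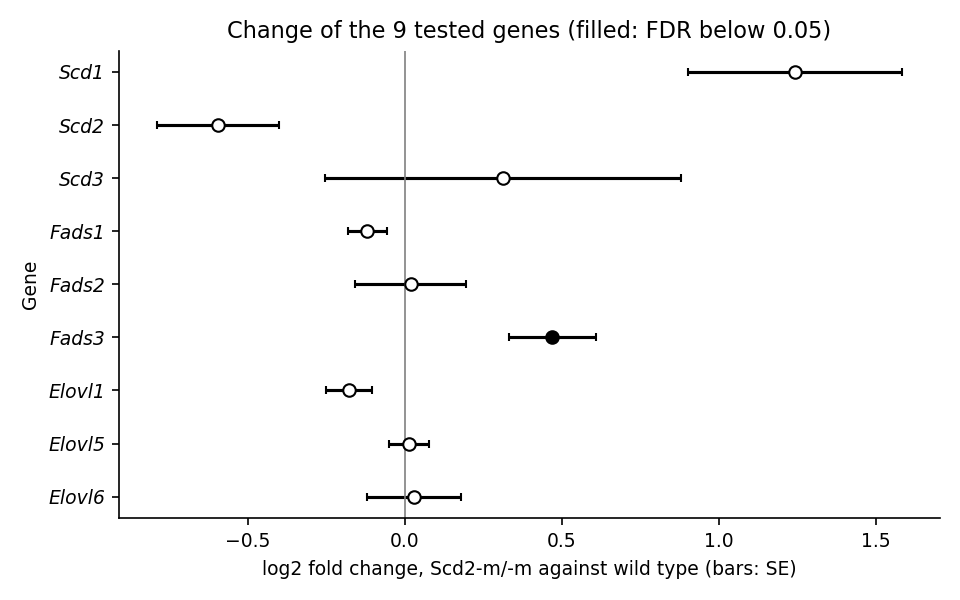
Log2 fold change of Scd2-m/-m against wild type for the 9 tested genes, with the standard error as bars and filled points for FDR below 0.05. Scd1 at 1.24 and Scd2 at -0.59 have the largest differences and wide errors, and Fads3 at 0.47 is the filled point.

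Levels between genes were compared as RPKM, per kilobase of annotated exon, with the full length of Scd2 in both genotypes. Elovl1 led at 63.8 ± 3.79 for wild type and 56.5 ± 5.65 for Scd2-m/-m, followed by Fads1 at 41.9 ± 2.01 and 38.6 ± 2.03 (SD, n = 3 each). Elovl5 followed at 13.5 ± 0.720 and 13.6 ± 0.280, and Scd2 at 12.7 ± 1.42 and 8.37 ± 2.19. Next came Fads2 at 6.19 ± 0.962 and 6.27 ± 1.44, and Scd1 at 2.24 ± 0.538 and 5.29 ± 1.99. At the lower end were Fads3 at 0.841 and 1.17, Elovl6 at 0.540 and 0.550, and Scd3 and Scd4 below 0.06 in both genotypes.

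The order of the 10 mean levels was the same in both genotypes, but the ranges of some neighbours overlapped between libraries. In wild type the ranges of Elovl5 and Scd2 overlapped, as did those of Scd3 and Scd4. In Scd2-m/-m those of Scd2 and Fads2, Fads2 and Scd1, and Scd3 and Scd4 overlapped. Within each Scd2-m/-m library, however, Scd2 lay above Fads2 and Fads2 above Scd1. Fads2 and Scd1 were at 7.90 and 7.56 RPKM in replicate 1, at 5.71 and 4.46 in replicate 2 and at 5.19 and 3.84 in replicate 3.

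The genes most like Scd2 across the 6 libraries were named by the Pearson correlation of log2 CPM, as a description. The highest were Zfp672 and Phf5a (both r = 0.997), Usp36 and Fbrs (both 0.996) and Zfp646 (0.991), and the lowest Lancl2 (-0.992), Mfn1 (-0.991) and Mrpl35 (-0.989). All 8 moved over a narrower range than Scd2. Fbrs, for example, was at 196, 206 and 193 CPM in wild type and 189, 170 and 173 CPM in Scd2-m/-m, so that its Scd2-m/-m replicate 1 also lay nearest the wild-type libraries. The points share library and genotype, and of the 14778 tested genes these are the ends of the range.

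Around the Scd cluster, 9 other tested genes had some part within 500 kb of Scd2, and 2 of them (22.2%) were called, beside 17.5% of all tested genes. Abcc2, an efflux pump for conjugated anions, was at 0.403, 0.260 and 0.433 CPM in wild type and 1.18, 1.15 and 1.29 CPM in Scd2-m/-m, a rise of 1.71 on the log2 scale (SE 0.29, edgeR FDR 0.0011). It rested on 12 to 22 counts per wild-type library. Cwf19l1 fell by 0.32 (SE 0.09, edgeR FDR 0.0282), from 12.7 to 15.2 CPM in wild type to 10.6 to 11.7 CPM in Scd2-m/-m. Its edgeR call was lost without wild-type replicate 1 (FDR 0.054) or 2 (0.16) or Scd2-m/-m replicate 1 (0.056) or 2 (0.13). Bloc1s2 (log2 difference -0.00) and Chuk (0.13), which flank Cwf19l1 in distance from Scd2, did not pass.

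Around the Fads genes, 18 other tested genes lay within 500 kb. Of these, 0 were called by edgeR, beside 17.5% of all tested genes, and 0 by DESeq2, with 2 at an unadjusted edgeR p below 0.05. These 2 were Tmem138 (log2 difference 0.36, edgeR FDR 0.0803) and Tmem216 (0.37, edgeR FDR 0.121). Limma-voom with quality weights called 2 genes there.

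**Figure D4:**
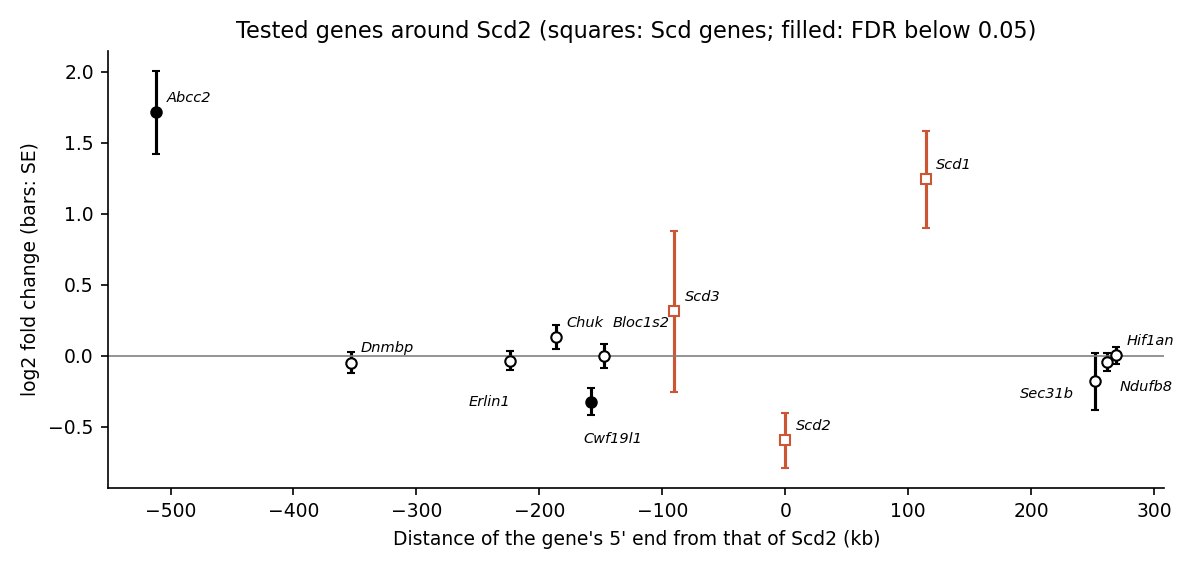
Log2 fold change of the tested genes around Scd2 against the distance of each gene's 5′ end from that of Scd2 in kb, with the standard error as bars. Squares are Scd genes and filled points have an FDR below 0.05, which only Abcc2 at 1.71 and Cwf19l1 at -0.32 reached.

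The genes that work with the desaturases and elongases were described in 7 lists with 69 genes, of which 61 were tested and 15 called, 8 higher and 7 lower in Scd2-m/-m. This is 24.6% of those tested, beside 17.5% of all tested genes, and the median log2 difference was -0.01. Of the enzymes related to the family, 4 of 8 were tested and 1 was called. Tmem189, the plasmanylethanolamine desaturase, was at 118, 96.8 and 96.0 CPM in wild type and 123, 122 and 121 CPM in Scd2-m/-m, a log2 difference of 0.23 (SE 0.08, edgeR FDR 0.0494). The groups did not overlap but wild-type replicate 1 came close, and the edgeR call was lost without any 1 of the 5 libraries other than wild-type replicate 1 (FDR 0.10 to 0.24). Degs1, the ceramide-forming dihydroceramide desaturase and the most abundant of these, had a log2 difference of -0.02 (edgeR FDR 0.863).

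Of the 6 enzymes that complete each elongation cycle after the Elovl step, all were tested, with 1 called higher and 1 lower. These were both 3-hydroxyacyl-CoA dehydratases. Hacd4 was at 146, 167 and 190 CPM in wild type and 200, 222 and 247 CPM in Scd2-m/-m, a rise of 0.41 on the log2 scale (SE 0.10, edgeR FDR 0.0147). Hacd3 was lower by a log2 difference of -0.22 (SE 0.06, edgeR FDR 0.0281), at 39.9 to 42.6 CPM in wild type and 33.3 to 36.8 CPM in Scd2-m/-m. The call of Hacd4 was lost without wild-type replicate 2 (edgeR FDR 0.056) or Scd2-m/-m replicate 3 (0.061). That of Hacd3 was lost without wild-type replicate 2 (edgeR FDR 0.086) or 3 (0.094) or Scd2-m/-m replicate 1 (0.072) or 2 (0.11). Tecr, the reductase of the last step, was the most abundant of the 6 over both genotypes although its mean was below that of Hacd4 in Scd2-m/-m (202 against 223 CPM), and had a difference of -0.13 (edgeR FDR 0.198).

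Desaturases take their electrons from cytochrome b5 and its reductases. Of 6 tested genes in this group 2 were called, both higher, while the median log2 difference of the 6 was -0.14. Cyb5a, the cytochrome b5 of the endoplasmic reticulum, was at 146, 135 and 148 CPM in wild type and 171, 172 and 176 CPM in Scd2-m/-m, a log2 difference of 0.28 (SE 0.06, edgeR FDR 0.0049). Cyb5r4 differed by 0.25 (SE 0.06, edgeR FDR 0.0082). Cyb5r3, the main reductase and the most abundant of the group, overlapped between genotypes, at 256 to 351 CPM against 235 to 292 CPM (edgeR FDR 0.264), and was called only without wild-type replicate 3 among the fits with 1 library left out (log2 difference -0.32, edgeR FDR 0.044). With all 6 libraries Cyb5r3 also passed with the replicate block (edgeR FDR 0.013), with no filter on low counts (edgeR FDR 0.017) and with limma-voom with quality weights (FDR 0.047). Cyb5a was not called without wild-type replicate 2 (edgeR FDR 0.054), nor Cyb5r4 without Scd2-m/-m replicate 2 (edgeR FDR 0.059).

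Of 10 tested genes that activate or carry fatty acids, 1 was called higher and 1 lower. Fabp4, the lipid carrier of fat cells and macrophages, was at 18.9, 14.2 and 12.8 CPM in wild type and 23.3, 25.4 and 21.1 CPM in Scd2-m/-m, a log2 difference of 0.60 (SE 0.13, edgeR FDR 0.0099). Of 7 adipocyte markers, Adipoq had no count in any library, and their sum of 45.2 to 50.3 CPM in wild type and 35.9 to 39.8 CPM in Scd2-m/-m was almost all Lipe, hormone-sensitive lipase, which fell by 0.31 on the log2 scale (edgeR FDR 0.0066). The part of fat cells in the level of Fabp4 was not tested. Acsl5, an acyl-CoA synthetase, fell by 0.30 (SE 0.07, edgeR FDR 0.011). Fabp4 was just short of a call without wild-type replicate 2 or Scd2-m/-m replicate 1 (edgeR FDR 0.051 in both), and Acsl5 without wild-type replicate 2 (edgeR FDR 0.056) or Scd2-m/-m replicate 2 (0.087). Slc27a1, the most abundant of the group over both genotypes although below Fabp5 in each wild-type library, had a log2 difference of 0.14 (edgeR FDR 0.226).

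Of 8 tested genes that make the saturated substrate, 2 were called, both higher. Acss2, which makes acetyl-CoA from acetate, was at 6.10, 7.39 and 7.28 CPM in wild type and 9.78, 9.63 and 8.72 CPM in Scd2-m/-m (log2 difference 0.44, SE 0.11, edgeR FDR 0.0137). Mid1ip1, an activator of acetyl-CoA carboxylase, differed by 0.24 (SE 0.06, edgeR FDR 0.0107). Acly, the most abundant, had a difference of -0.13 (edgeR FDR 0.230), and Fasn, fatty acid synthase, a difference of -0.21 (edgeR FDR 0.105). Without Scd2-m/-m replicate 1 Fasn was called lower (-0.31, edgeR FDR 0.011). Acss2 was not called without Scd2-m/-m replicate 2 (edgeR FDR 0.068), nor Mid1ip1 without that library (0.062) or wild-type replicate 2 (0.054).

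Among 15 tested regulators of desaturase transcription, 3 were called, beside 17.5% of all tested genes. All 3 were lower, while the median log2 difference of the 15 was 0.01. Rxra, the partner of LXR on DNA, was at 113, 114 and 116 CPM in wild type and 71.2, 70.5 and 66.5 CPM in Scd2-m/-m, a fall of 0.72 on the log2 scale (SE 0.06, edgeR FDR 1.94e-06). Nr1h3, which encodes LXR-alpha, was at 55.0, 42.4 and 39.0 CPM against 33.6, 28.6 and 28.1 CPM (log2 difference -0.59, SE 0.13, edgeR FDR 0.0112), and was not called without Scd2-m/-m replicate 3 (edgeR FDR 0.093). Srebf2, the regulator of cholesterol synthesis and the most abundant of the 15, was at 395 to 450 CPM against 300 to 361 CPM (-0.37, SE 0.08, edgeR FDR 0.0040). Srebf1, the regulator most tied to Scd1, was at 108 to 111 CPM in wild type and 101 to 119 CPM in Scd2-m/-m, a log2 difference of 0.01 (edgeR FDR 0.954).

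Of 12 other genes known as SREBP or LXR targets, 1 was called higher and 2 lower. Abcg1, an exporter of sterols, was at 158, 173 and 180 CPM in wild type and 308, 277 and 255 CPM in Scd2-m/-m, a log2 difference of 0.72 (SE 0.07, edgeR FDR 2.02e-05). Apoe, the secreted lipid carrier and the most abundant of the 12, was at 10608, 9918 and 9392 CPM against 3238, 3646 and 3630 CPM, a log2 difference of -1.51 (SE 0.08, edgeR FDR 4.05e-08). Mylip, the ubiquitin ligase that degrades the LDL receptor, fell by 0.53 (SE 0.07, edgeR FDR 9.12e-05). The called genes of this group thus did not differ in 1 direction. Scd1, itself an LXR and SREBP target, was not called.

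**Figure D5:**
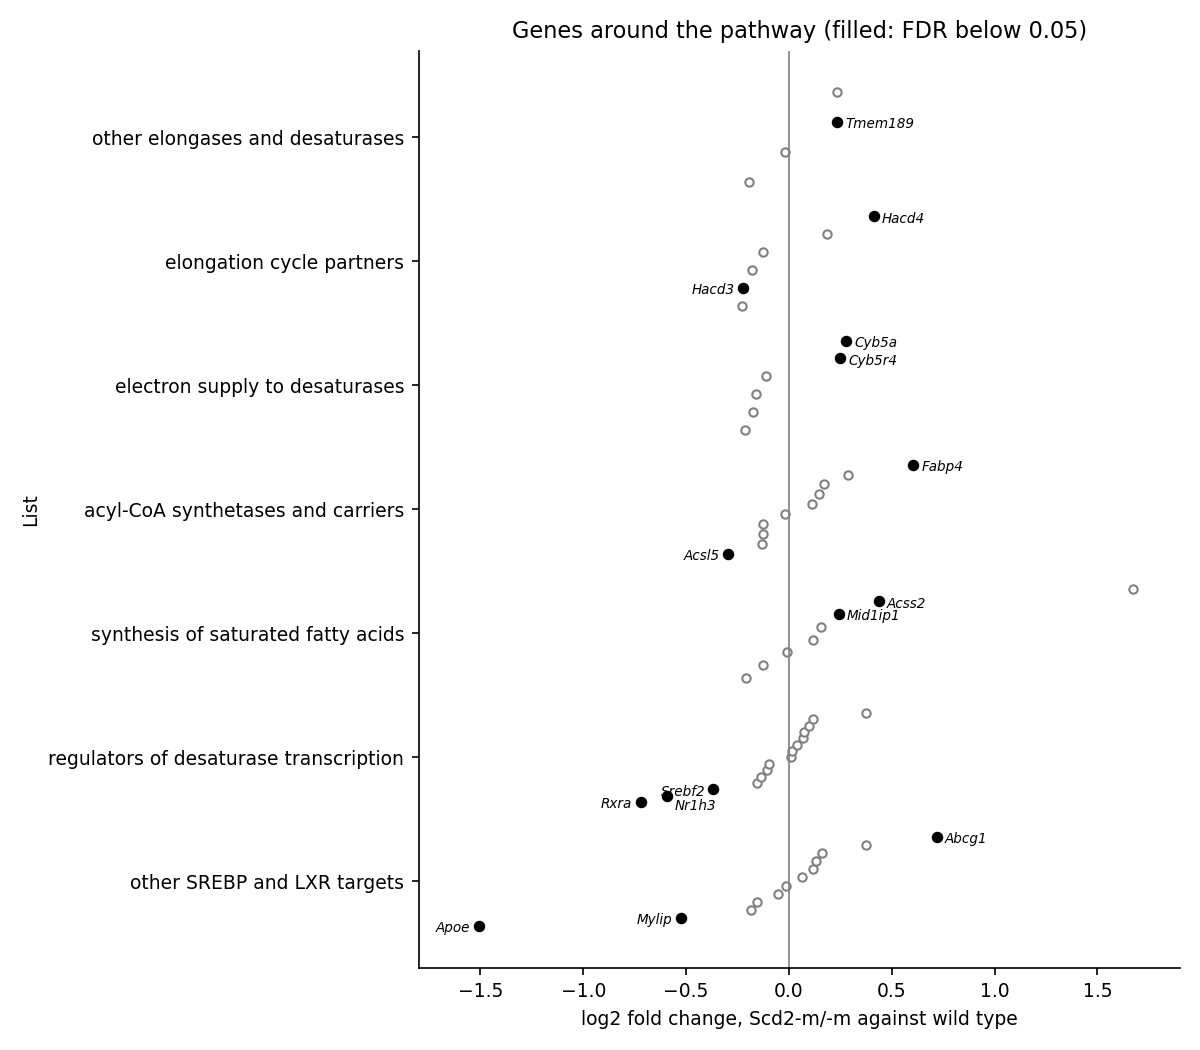
Log2 fold change of Scd2-m/-m against wild type for the 61 tested genes of 7 lists around the pathway, 1 point per gene, with filled and named points for an FDR below 0.05. The 15 filled points are 8 above 0 and 7 below 0, with Apoe at -1.51 the farthest. The open point at the far right is Acacb, which was at 4.00 CPM in Scd2-m/-m replicate 2 and below 1 CPM in the other 5 libraries.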

How the data were processed

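Poly(A)-selected RNA of 3 wild-type and 3 Scd2-m/-m BMDM samples was sequenced by the authors, aligned with STAR to the Ensembl primary assembly, and deposited as raw counts, whole numbers that were not normalized. Neither counting tool nor strand setting was given in the sources used here. A comparison table by the authors (log2 fold changes, confidence limits, p-values and log2 CPM) was not used. After removal of 276 repeated entries, 40481 genes remained. Low counts (1 to 20) were even in 60.9% to 64.9% of cases, so that 1 count may not stand for 1 read pair.

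Counts were tested with edgeR 4.0.16 in R 4.3.3 (filterByExpr, TMM factors, robust glmQLFit, glmQLFTest) on all 14778 genes that passed the filter, with Benjamini-Hochberg adjustment over all of them (FDR). A gene was called at an FDR below 0.05. CPM and RPKM used TMM-scaled totals, and RPKM used the union of exons in GENCODE M21 (GRCm38), which held 99.7% of the genes. Alternatives were RLE and upper-quartile factors, DESeq2 1.42.0, limma-voom (limma 3.58.1) and its version with quality weights, other filters, halved counts, a replicate block, each library left out, and the longest transcript as length. The script was tested on simulated data.

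Members and lists were chosen with earlier results of these data known. All 10 members are named. In each list the called genes (up to 5) and the most abundant gene are named, with the 5 genes highest and 3 lowest in correlation with Scd2, and called genes within 500 kb of Scd2 or the Fads genes. Fasn, Fabp5, Srebf1, Acacb, Cdc20, Bloc1s2, Chuk, Tmem138, Tmem216 and the single markers of cell types other than macrophages were added after their values were seen.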

Additional observations from a re-analysis of the deposited data

How the results depend on the processing

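The precision is limited by 3 libraries per genotype and by 1 Scd2-m/-m library that stands apart for several of the enzymes. Genes near 0.1 CPM, Scd3 and Scd4, rest on 13 counts or fewer per library. Another scaling (RLE or upper-quartile factors) moved the median of all log2 differences by less than 0.01 and changed the call of no member. The number of members called was 2 with DESeq2 (Scd1 and Fads3), 3 with limma-voom (Scd1, Scd2 and Fads3) and 5 with limma-voom with quality weights (these 3 with Fads1 and Elovl1), against 1 with edgeR. It ranged from 0 to 3 with 1 library left out: it was 0 without wild-type replicate 2 or 3 or Scd2-m/-m replicate 2, and 3 (Scd1, Scd2 and Elovl1) without Scd2-m/-m replicate 1. The log2 difference of Scd2 passed the threshold with limma-voom (-0.62, FDR 0.010) and with quality weights (-0.82, FDR 9.7e-05), and ranged from -0.83 to -0.48 with 1 library left out. The cause of these differences between tools was not tested.

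Over all genes, 4507 were called with limma-voom with quality weights against 2585, and 1440 to 2567 with 1 library left out, fewest without Scd2-m/-m replicate 2 and then without wild-type replicate 2 (1490). Among the partner genes, 31 were called with quality weights against 15, and 8 to 19 with 1 library left out, fewest without wild-type replicate 2. Genes with a difference near 0 changed sign and did not pass the threshold. With quality weights Fads2 was at -0.040, Elovl5 at -0.0024 and Elovl6 at -0.12. With 1 library left out, Scd3 ranged from -0.0033 to 0.71, Fads2 from -0.18 to 0.14, Elovl5 from -0.022 to 0.055, Elovl6 from -0.032 to 0.13 and Degs1 from -0.043 to 0.00091. The mean share of Scd2 among the Scd genes ranged from 83.8% to 85.6% in wild type and from 59.6% to 62.8% in Scd2-m/-m with 1 library left out, and was 84.5% and 61.1% with the longest transcript as length. Among these alternatives the order of levels changed for Scd3 and Scd4 without wild-type replicate 3.

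The labels number the replicates alike in both genotypes. Deviations from the group means of same-numbered samples correlated at 0.053, -0.020 and 0.040 across genes, against -0.074 to 0.041 for other pairs. The number was therefore not taken to pair samples in the main fit, but correlations over all genes cannot show that samples were unpaired. With the replicate number as a block, 2974 genes and 3 members (Scd1 and Elovl1, both FDR 0.027, and Fads3, FDR 0.038) were called. Without it, 2585 genes and 1 member were called. The FDR of Scd2 with the block was 0.056.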
